A study of Mus musculus with 3 samples.

Results

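A group of 8 genes of the complement system, out of 15394 genes measured, was followed through 3 states of cultured mouse cardiac myofibroblasts. The genes were taken by name, though with earlier results of these data known, so their counts beside all genes are a description: the central component C3, the components C4b, C2 and Cfb from which the enzymes that cut C3 are built, the regulators Serping1 and Cd55, and C3ar1 and C5ar1, the receptors for the small fragments released from C3 and C5. Complement is a cascade of plasma and tissue proteins in which antibody, lectins or slow spontaneous turnover of C3 start a chain of proteolytic cuts that meets at C3. The larger fragment of C3 tags surfaces for phagocytes, the smaller fragments of C3 and C5 attract and activate myeloid cells, and the last components form a pore in membranes. The liver makes most circulating complement, but fibroblasts, endothelial cells and macrophages make components locally, and in an infarcted heart the cascade is known to be activated.

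The 3 states were adherent, non-adherent and re-adherent myofibroblasts, with 1 array for each. All 3 came from male C57BL/6J mice, 10 weeks old at surgery in one label and 8 weeks old in another, whose left anterior descending coronary artery had been ligated permanently and whose hearts were taken 3 days later. The hearts were digested with collagenase and elastase, the cells were given a night to attach to plastic, and those without CD45, the common surface protein of leukocytes, were kept and named myofibroblasts. Adherent cells were grown on plastic plates. Non-adherent cells had been moved from plates into suspension, and re-adherent cells had been put back on plastic after suspension. By the counts in the study's methods, far fewer cells were collected from suspension than were put in. The comparison asks which genes follow physical attachment. The states were collected one after another, so attachment and time in culture cannot be told apart, and the design text of the series describes each sample as mixed from several plates and hearts. With 1 array for each state no spread between biological samples and no p-value could be computed.

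Signals are given in intensity units of the scanner software's processed signal (background subtracted, linear). Differences are on the log2 scale after each array was divided by its 75th percentile, so 1 on this scale is 2-fold, and they carry the error that the software assigns to the spots, 0.20 for a gene of median error and for nearly all members. This error covers the array measurement and not the spread between cultures. Between 53.9% and 59.9% of spots that were not controls were well above background on each array. All 8 members exceeded background clearly on 1 array or more, which was the condition for a gene to count as measured. On all 3 arrays 7 did, and Cfb did not in re-adherent cells. Of the 15394 measured genes, 13478 besides any 1 of these 7 were also well above background on all 3. The median difference of all genes lay within 0.08 of 0 in all 3 pairs of arrays.

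The labelled cell type was checked against marker genes. Acta2, the smooth muscle actin that defines myofibroblasts, gave 434804, 4682 and 345124 in adherent, non-adherent and re-adherent cells, and all 4 contractile markers were lower in suspension, with differences from -8.80 to -5.98. All 11 listed fibroblast markers were well above background on every array. Ptprc, which encodes CD45, and Adgre1, which encodes a surface antigen of macrophages, were also well above background on all 3 arrays despite the depletion. Ptprc gave 355, 2441 and 532 and Adgre1 gave 4077, 38947 and 6413. Of 17 measured macrophage markers (of 19 listed), all 17 were over 2-fold higher in suspension, with a median of 2.77 and a range of 1.33 to 3.58. Of these, Ccr2 was well above background in suspension alone, where it was at least 3.07-fold higher than in adherent cells. The summed level of the 17 markers, in multiples of each array's 75th percentile, was 194 in adherent, 1328 in non-adherent and 404 in re-adherent cells. Macrophage transcripts were thus read on all 3 arrays, and their levels moved in the same direction as most members in suspension. In bulk RNA, more cells of a type and more RNA per cell cannot be told apart.

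The promoters of C3 and of both receptors are shown here, C3 because its difference in suspension was the widest of the 8 and the receptors because they moved together. Each window is the 250 bases before the annotated gene start, 5′ to 3′ on the gene's own strand, which is the minus strand for all 3 (RefSeq, build GRCm38.p6). Capitals mark a match to 1 of 6 short motifs of factors known to act on complement genes or on attached cells.
C3, chr17:57228137-57228386: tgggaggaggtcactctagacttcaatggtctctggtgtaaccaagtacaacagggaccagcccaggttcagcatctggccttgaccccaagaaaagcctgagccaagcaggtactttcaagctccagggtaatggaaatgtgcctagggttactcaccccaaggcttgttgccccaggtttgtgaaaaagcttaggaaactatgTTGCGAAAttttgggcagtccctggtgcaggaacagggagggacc
C3ar1, chr6:122856158-122856407: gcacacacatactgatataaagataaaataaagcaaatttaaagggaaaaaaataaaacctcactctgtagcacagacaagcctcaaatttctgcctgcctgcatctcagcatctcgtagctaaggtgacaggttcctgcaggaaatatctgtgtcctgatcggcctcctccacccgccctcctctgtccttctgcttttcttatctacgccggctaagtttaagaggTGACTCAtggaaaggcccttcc
C5ar1, chr7:16259339-16259588: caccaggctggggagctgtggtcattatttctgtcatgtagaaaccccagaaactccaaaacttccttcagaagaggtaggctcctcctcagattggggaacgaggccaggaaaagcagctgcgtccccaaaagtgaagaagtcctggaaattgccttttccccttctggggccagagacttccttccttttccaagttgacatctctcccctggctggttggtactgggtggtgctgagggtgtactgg

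The motifs were searched on both strands in the same window of 32851 mouse promoters. C3 held TTGCGAAA, a match to the C/EBP motif TTGCGNAA, 45 to 38 bases before its start, and 0.670% of all promoters held this motif. C3ar1 held TGACTCA, a match to the AP-1 motif TGANTCA, 22 to 16 bases before its start, and 6.75% of all promoters held it. The C5ar1 window held none of the 6 motifs, nor did that of Cd55. The other 4 motifs matched none of these 4 windows: the STAT motif TTCNNNGAA was in 7.02% of all promoters, the interferon response core (ISRE) in 2.98%, the NF-kB motif in 0.356% and the TEAD motif GGAATG in 12.6%. These matches describe letters in the window, not binding. Promoters of C4b, C2, Cfb and Serping1 were not analysed here. C3, C4b, C2 and Cfb all lie on chromosome 17, where Cfb and C2 are direct neighbours. Serping1 lies on chromosome 2, C3ar1 on chromosome 6, C5ar1 on chromosome 7 beside C5ar2, and Cd55 on chromosome 1 beside Cd55b.

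Most of the 8 complement transcripts were higher in suspension and lower again after re-attachment. From adherent to non-adherent cells 6 of 8 members were over 2-fold higher and none was over 2-fold lower, where 17.2% of all genes were over 2-fold higher and 14.7% over 2-fold lower. Of these, 4 (C3, C4b, C3ar1 and C5ar1) were over 4-fold higher, against 7.61% of all genes, and none was over 4-fold lower, against 5.34%. From non-adherent to re-adherent cells 7 members were over 2-fold lower and none over 2-fold higher, against 16.3% and 15.6% of all genes. Of these, 5 (C3, C4b, C2, Cfb and Serping1) were over 4-fold lower, against 6.05% of all genes, and none was over 4-fold higher, against 5.7%. The 6 that were over 2-fold higher in suspension were all over 2-fold lower again after re-attachment, a pattern of 13.1% of all genes. Among the 2647 genes over 2-fold higher in suspension, 2009 were over 2-fold lower again, so this return was common among such genes. These comparisons share the non-adherent array, so the higher and the lower difference of a gene are not independent of each other. The median difference of the 8 members was 2.17 from adherent to non-adherent cells and -2.66 from non-adherent to re-adherent cells, beside -0.07 and 0.08 for all genes.

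**Figure D1:**
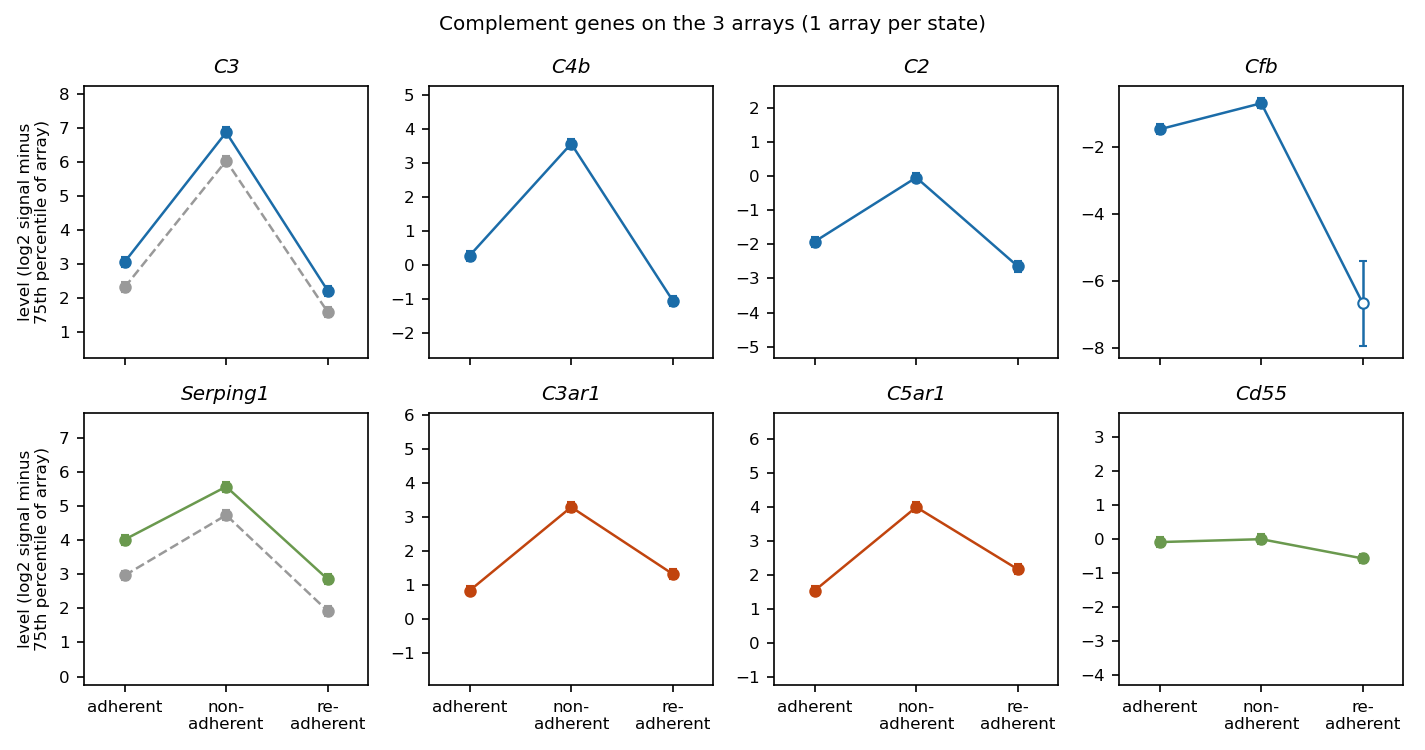
Level of each member in the 3 states, as log2 processed signal minus the 75th percentile of that array. Each point is 1 array, bars are the software's error, grey dashed lines are the second probes of C3 and Serping1, and the open point marks a probe not well above background. Every panel spans at least 8 log2 units, set around its own gene, so heights are not compared between genes. The non-adherent array is the highest for all 8 genes, though for Cd55 by only 0.09, less than its error of 0.20. The re-adherent array is the lowest for all but C3ar1 and C5ar1. The share of all genes in each order is not given here.

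C3 carried the widest difference of the 8 members in suspension. Its main probe (A_51_P110301), printed in 10 spots on each array, gave 5447 in adherent, 81579 in non-adherent and 2524 in re-adherent cells. The spots ran from 4961 to 5625 for adherent cells, from 77440 to 86242 for non-adherent cells and from 2431 to 2588 for re-adherent cells. No spot of one state overlapped with a spot of another. This comparison covers spots on the same arrays only, which are not replicates of a state. The share of other repeated probes without overlap is not given here. C3 was 14.0-fold higher in non-adherent than in adherent cells (log2 difference 3.81), and 117 of 15394 genes had a larger difference. Over the 10 spots taken in turn the difference ran from 3.70 to 3.98 (SD 0.08). It was then 25.1-fold lower in re-adherent than in non-adherent cells (-4.65), which left it 1.79-fold below the adherent level (-0.84). A second probe of C3 (A_55_P2038525) gave 3245, 45664 and 1634, with differences of 3.72, -4.44 and -0.72, the same order of states.

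C4b encodes the component that, once cut, forms with C2 the classical and lectin enzyme that cuts C3. Its probe (A_55_P2078633) gave 785, 8191 and 261 in adherent, non-adherent and re-adherent cells. C4b was 9.75-fold higher in suspension (3.29) and 24.4-fold lower after re-attachment (-4.61), which placed it 2.50-fold below the adherent level (-1.32). The mouse genome holds a close copy, C4a, for which no named probe was on the array, and how far the C4b probe also reads C4a was not tested.

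C2 supplies the protease of that enzyme. It gave 172, 680 and 86.7 (A_51_P497985), so that it was 3.69-fold higher in suspension (1.88) and 6.10-fold lower after re-attachment (-2.61). The re-adherent signal lay below the adherent one by 0.73 on the log2 scale. C2 thus kept the order of C3 and C4b, with the non-adherent array highest and the re-adherent array lowest, at a narrower range.

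Cfb, factor B, supplies the protease of the alternative pathway enzyme and stands next to C2 on the chromosome. Its probe (A_51_P413866) gave 234 in adherent and 428 in non-adherent cells, a difference of 0.78 that stayed under 2-fold. In re-adherent cells it read 5.33, which was not well above background. It was therefore at least 18.2-fold lower in re-adherent than in non-adherent cells and at least 10.6-fold lower than in adherent cells. The measured log2 differences were -5.97 and -5.19 with an error of 1.28, which is the dim spot's. Cfb was the only one of the 8 to lie over 4-fold below the adherent level after re-attachment, where 1.29% of all genes did, and none lay over 4-fold above it, where 1.36% did. In suspension C3, C4b and C2 were all over 2-fold higher and Cfb was not. With a background correction of the normexp type the dim signal was raised, and the differences of Cfb became -2.34 and -1.80, in the same direction. Both are smaller than the bounds above, and the second is under 4-fold. The bounds and the 4-fold call thus depend on the background correction.

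**Figure D2:**
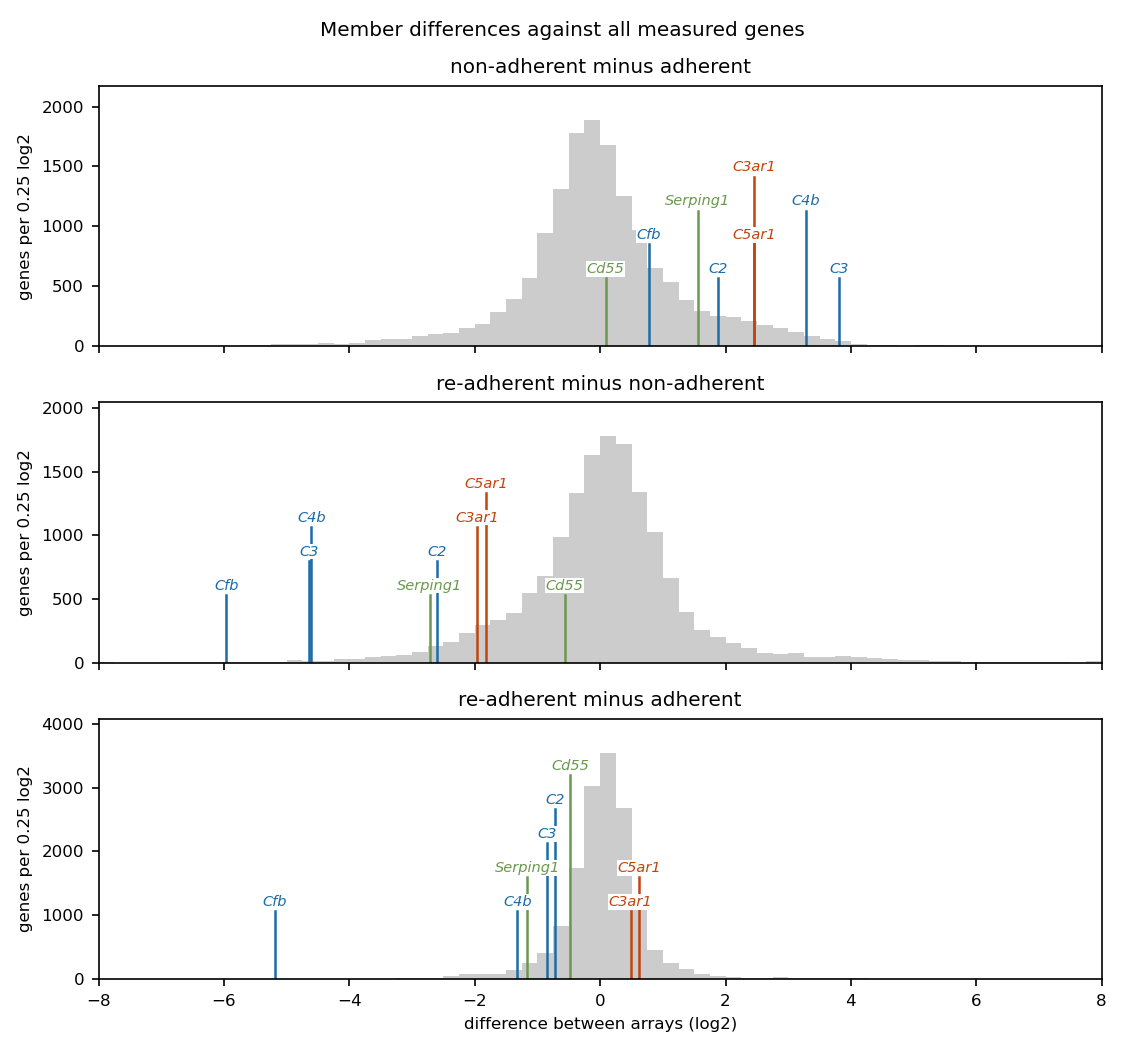
Log2 difference of each member (vertical lines; blue for components, green for regulators, red for receptors) over the histogram of all 15394 genes in steps of 0.25 log2, for the 3 pairs of arrays. Genes beyond 8 are counted in the end bars. Apart from Cd55 and Cfb in suspension and Cd55 after re-attachment, members lie past 2-fold to the right in suspension and to the left after re-attachment, while between the 2 attached states the receptors lie right of 0 and the other 6 left of it.

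The regulators were unlike each other. Serping1 encodes the C1 inhibitor, which blocks the proteases C1r and C1s that start the classical pathway. Its main probe (A_55_P1992889) gave 10576, 33257 and 3926, so it was 2.94-fold higher in suspension (1.55), 6.58-fold lower after re-attachment (-2.72) and 2.24-fold below the adherent level at the end (-1.16). Its second probe (A_51_P376238) gave 5096, 18644 and 2055, with differences of 1.77, -2.82 and -1.04. Both probes gave the same order of states.

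Cd55 encodes decay accelerating factor, a membrane protein that takes apart the enzymes that cut C3. Its probe (A_55_P2101585) gave 611, 694 and 364. The difference in suspension, 0.09, was smaller than its error of 0.20, and its sign turned to -0.17 when arrays were scaled to spike-in probes. After re-attachment it was 1.48-fold lower (-0.57), below the 2-fold threshold. Cd55 was the member that varied least over the 3 arrays. The neighbouring copy Cd55b gave differences of -0.0039 in suspension and -0.59 after re-attachment, and how far probes of the 2 genes read both was not tested.

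C3ar1 and C5ar1 encode the receptors for C3a and C5a and are best known from macrophages and neutrophils. C3ar1 (A_51_P282557) gave 1165 in adherent, 6827 in non-adherent and 1358 in re-adherent cells. C5ar1 (A_55_P2017681) gave 1890, 11053 and 2423. C3ar1 was 5.47-fold and C5ar1 5.46-fold higher in suspension, by 2.45 on the log2 scale each. After re-attachment C3ar1 was lower by 1.97 and C5ar1 lower by 1.83 on that scale, and neither went below the adherent level. Re-adherent cells were above adherent cells by 0.49 for C3ar1 and by 0.62 for C5ar1. The receptors were the only members in this order, with non-adherent highest, re-adherent next and adherent lowest. The other 6 had re-adherent cells lowest, and the share of all genes in each order is not given here.

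Between the 2 attached states 3 members (C4b, Cfb and Serping1) were over 2-fold lower in re-adherent than in adherent cells, where 4.9% of all genes were, and none was over 2-fold higher, where 4.84% were. With arrays scaled to spike-in probes, which moved the median of all genes to -0.40, 5 members were over 2-fold lower (C3 and C2 in addition), and the differences of C3ar1 and C5ar1 became 0.02 and 0.16. C4b and Serping1 were over 2-fold higher in suspension, over 2-fold lower after re-attachment and over 2-fold lower at the end than at the start, which 1.2% of all genes were. C3 and C2 lay below the adherent level by 0.84 and 0.73, under this threshold.

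The members were set beside the macrophage markers. For C3ar1 and C5ar1 the difference in suspension, 2.45, lay inside the range of the 17 markers, with 15 above it and 2 below. Between re-adherent and adherent cells 15 of 17 markers were higher in re-adherent cells, with a median of 0.88, and here too both receptors lay inside, with 12 markers above and 5 below C3ar1 and 11 above and 6 below C5ar1. The difference of C3 in suspension was larger than that of all 17 markers, and that of C4b larger than that of 16. For C2 and Serping1 16 markers lay above, and for Cfb and Cd55 all 17. From non-adherent to re-adherent cells 16 markers were over 2-fold lower, and Cx3cr1 was higher by 1.95. In that pair 17 markers lay above C3, C4b and Cfb, 15 above C2 and Serping1, 12 above C3ar1, 9 above C5ar1 and 1 above Cd55. From adherent to re-adherent cells all 17 markers lay above C3, C4b, C2, Cfb and Serping1. The part of macrophage RNA in the differences of the members was not tested.

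**Figure D3:**
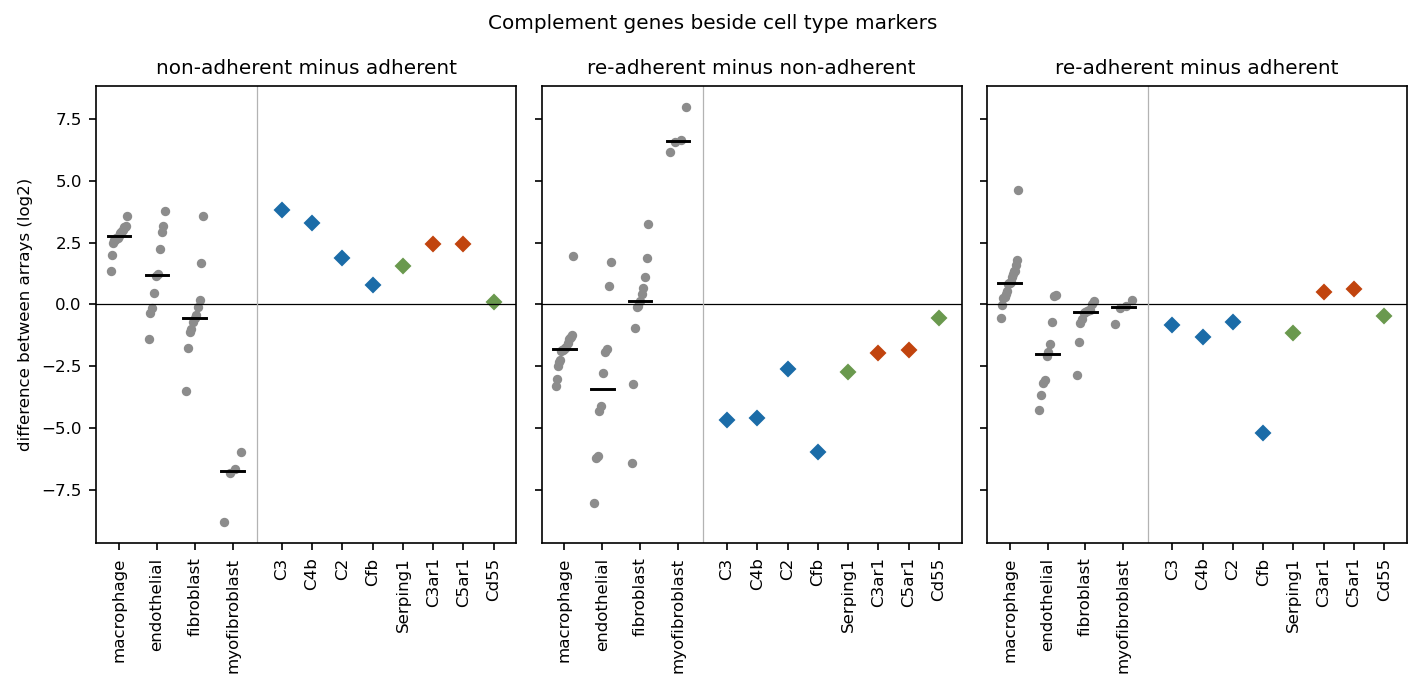
Log2 differences of marker genes (grey points, 1 gene each; black bar, median of the list) and of the 8 members (diamonds, coloured as components, regulators and receptors) in the 3 pairs of arrays. In suspension all 17 macrophage markers lie above 0 and all 4 myofibroblast markers below it. Between the attached states the receptors lie above 0 with most macrophage markers, and the other members below it.

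The markers of other cell types did not share a course. Of 10 measured endothelial markers 6 were over 2-fold higher, 1 over 2-fold lower and 3 within 2-fold in suspension, and 7 were over 2-fold lower in re-adherent than in adherent cells, 3 of them with a signal not well above background in re-adherent cells. Cdh5, the cadherin of endothelial junctions, was higher by 2.94 in suspension and lay 3.18 below the adherent level after re-attachment on the log2 scale. The summed level of the endothelial markers, 36.9, 40.5 and 39.0 in adherent, non-adherent and re-adherent cells, was nearly flat. This sum mostly reads the brightest genes, Kdr, Eng and Egfl7, and not the list as a whole. The 2 probes of Kdr disagreed in sign in suspension (-0.35 and 1.96), so its call and the sum depend on the probe. Kdr and Eng were named after their values were seen. Of 11 fibroblast markers, 4 were lower and 2 higher in suspension by over 2-fold, 8 of 11 were lower by any amount, and the median was -0.55. The 2 that were higher were the matrix proteoglycan genes Lum (3.56) and Dcn (1.69), and they were also over 2-fold lower in re-adherent than in adherent cells (-2.85 and -1.51). Lum and Dcn had the order of the 3 arrays that C3, C4b, C2 and Serping1 had, which most of this list did not share in suspension. That order was not particular to Lum and Dcn, and Cdh5 had it too. By any amount, 7 of 10 endothelial markers were higher in suspension, and 8 of 10 were lower in re-adherent than in adherent cells. The other fibroblast marker over 4-fold, Thy1, ran the other way from Lum and Dcn, with -3.50 in suspension and 3.27 after re-attachment. The part of endothelial RNA in the members' differences was not tested. Of 6 granulocyte markers 3 were measured, of which 1 was over 2-fold higher (S100a8, 1.44) and 1 over 2-fold lower in suspension. Of 7 heart muscle markers 4 were measured, and they differed in course. Myh6, the cardiac myosin heavy chain, gave 36.4, 75.6 and 26.9, while Tnnt2, cardiac troponin T, named after its values were seen, gave 593, 955 and 1646 and was highest in re-adherent cells.

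The rest of the complement system was read from a list of 50 further genes, of which 49 had a named probe and 37 were measured, that is, well above background somewhere. In suspension 22 of the 37 were over 2-fold higher and 3 over 2-fold lower, with a median of 1.51. After re-attachment 24 were lower and 2 higher by over 2-fold, with a median of -1.39. From adherent to re-adherent cells 6 were higher and 7 lower by over 2-fold, with a median of -0.09 whose sign turned under 3 other settings of the processing. These counts use measured differences. Among the genes counted as lower, Vtn and C6 were well above background in non-adherent cells alone, at signals of 17.9 and 23.9, and had no bound over 2-fold, and Cd59b was at least 1.82-fold lower in re-adherent than in adherent cells.

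In the classical and lectin pathways 9 of 12 measured genes were over 2-fold higher in suspension and none over 2-fold lower. The 3 chains of C1q, the molecule that recognises bound antibody, were higher in suspension by 3.32 (C1qa), 3.44 (C1qb) and 3.30 (C1qc), and stayed 1.91, 1.83 and 1.75 above the adherent level after re-attachment. The proteases that C1q carries did not stay above it. C1s1 was higher by 3.23 and C1s2 by 3.08 in suspension, and they ended below the adherent level (-1.23 and -1.31). A second probe of C1s2 gave 2.50 in suspension and ended at -0.58, under 2-fold. C1ra was higher by 2.10 and C1rb by 1.60 in suspension and they ended at -0.81 and -0.51. C1q and its proteases thus parted after re-attachment, with C1q genes above the adherent array and protease genes below it, as were C4b, C2 and Serping1. C1s1 and C1s2, like C1ra and C1rb, are close copies, and binding of one transcript to the other's probe was not tested. Fcna, a lectin pathway ficolin of macrophages, was higher by 5.15 in suspension and stayed 2.05 above the adherent level.

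In the alternative pathway factor B was joined by Cfd, the protease that cuts it, and Cfp, properdin, which stabilises the enzyme. Cfd gave 17.3, 858 and 51.0, a difference of 5.54 ± 0.35 (software error) in suspension, and ended 1.83 above the adherent level. Cfp gave 9260, 65105 and 11457, with differences of 2.72 in suspension and 0.57 at the end. Both thus ended above the adherent level, and Cfb ended below it, by at least 10.6-fold with the main processing. Of the terminal components, Hc, which encodes C5, was higher by 1.08 and C7 by 1.51 in suspension. A second probe of C7 gave 2.82. Of the other 2 measured, C6 was under 2-fold, and C8g, named after its values were seen, gave 0.56 with one probe and 1.63 with another, so its call depends on the probe. Another 3 of the 7 listed were not well above background on any array.

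Of 11 other measured regulators, 4 were over 2-fold higher in suspension and 2 over 2-fold lower, and for 1 more the call depends on the probe. Cfi, factor I, the protease that destroys C3b and C4b, was higher by 2.25 in suspension and ended just over 2-fold below the adherent level, and Clu, clusterin, was higher by 2.90 and ended at -1.23. These secreted inhibitors had the same order of arrays as Serping1. The membrane inhibitors Cr1l, Cd55b and Cd59a, named after their values were seen, differed by 0.03, -0.0039 and -0.55 in suspension, all under 2-fold as Cd55 was. Susd4, another membrane regulator, was higher by 1.44 in suspension and Cd59b was at least 3.06-fold lower there, from signals of 21.9 and 40.1 in adherent cells. C4bp, which encodes a chain of C4b binding protein, was at least 5.27-fold lower in suspension and at least 9.04-fold higher again after re-attachment, from a dim signal of 69.1 in adherent cells.

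Of 8 other receptors, 5 were over 2-fold higher in suspension. These were Vsig4, a macrophage receptor for C3 fragments, with 3.44, Itgax and Itgb2, chains of the integrin receptors for cut C3, with 3.02 and 2.29, Cd93 with 2.45 and C5ar2, the second receptor for C5a, with 1.90. C5ar2 ended 0.87 above the adherent level, on the same side as its neighbour C5ar1, and Itgax ended 1.39 above it. C1qbp was the only receptor gene over 2-fold lower in suspension (-1.07). The 3 probes of Itgam disagreed in sign in suspension, from -0.84 to 1.96, so no direction is given for this gene, named after its values were seen.

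**Figure D4:**
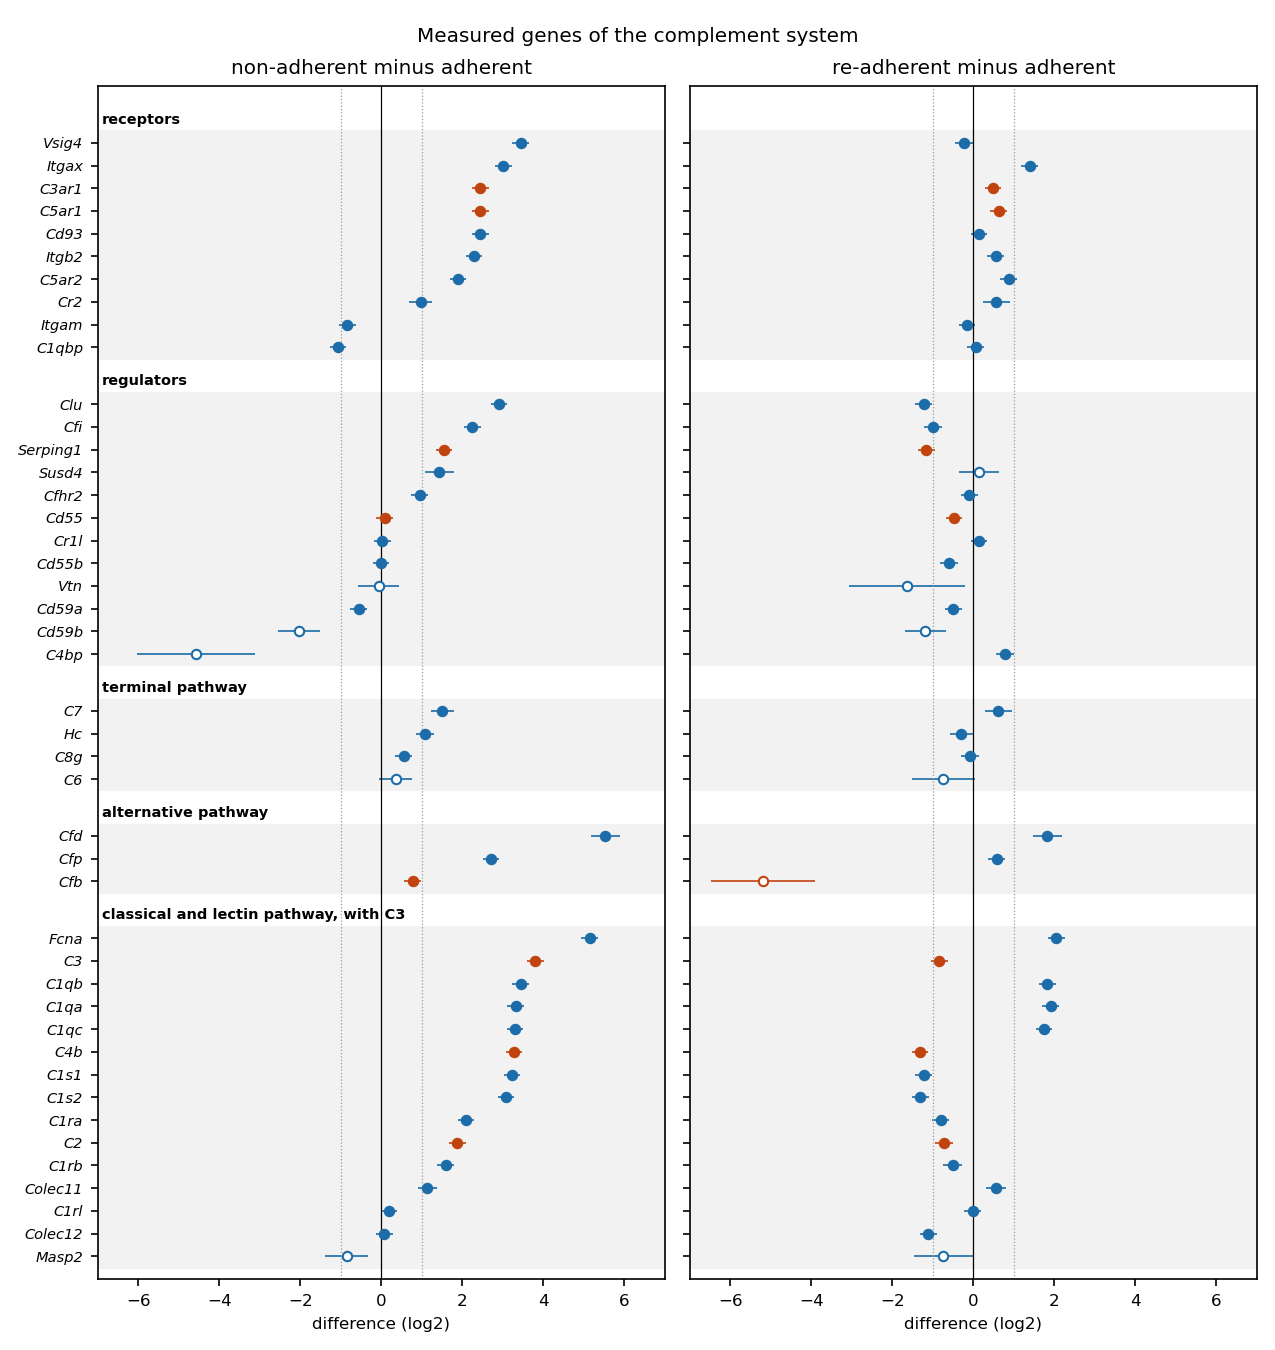
Log2 differences of the 8 members (red) and of other measured complement genes (blue), grouped by role, from adherent to non-adherent cells (left) and from adherent to re-adherent cells (right). Bars are the software's error, open points mark a gene not well above background on at least 1 of the 2 arrays, and dotted lines are 2-fold. In the right panel the 3 C1q genes, Fcna, Cfd and Itgax lie above the upper line, and C4b, Cfb, Serping1, C1s1, C1s2, Colec12, Cfi, Clu, Cd59b and Vtn lie below the lower one. The probe with the highest mean stands for each gene, so a second probe of C1s2 at -0.58 is not drawn.

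Factors known to act on complement genes were read as well, and 18 of 19 listed were measured. In suspension 4 were over 2-fold higher, 4 over 2-fold lower and 10 within 2-fold. Il1b, the cytokine interleukin-1 beta, was at least 13.4-fold higher in suspension, where it gave 240, and was not well above background in either attached state. Tnf was higher by 3.59 and Osm, oncostatin M, by 2.88. Il6, a cytokine that raises acute phase genes such as C3 in liver, ran the other way with 9705, 345 and 4357, a difference of -4.91 in suspension and 4.02 after re-attachment. Cebpd, which encodes a factor that binds the C/EBP motif found in the C3 promoter, was also lower in suspension (-1.97, just under 4-fold), and Cebpb, which encodes another, differed by 0.46. The last 2 were named after their values were seen. C3 was thus highest on the array where Il6 and Cebpd were lowest and Il1b and Tnf highest. Whether any of these factors acted on C3 in these cells was not tested.

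The genes whose course over the 3 arrays was most like that of a member were sought for the 3 members with the widest range among those well above background on all arrays. Likeness was the Euclidean distance between log2 profiles centred on their own mean, over 3 arrays and 13478 genes, and with 3 points many genes come close by their number alone. For C3, whose range was 4.65, these were Dkk3 (0.147), Lbp (0.158) and Padi4 (0.324). Lbp encodes the lipopolysaccharide binding protein of the acute phase, and it was higher by 4.03 in suspension and ended at -0.72. For C4b, whose range was 4.61, they were C1s1 (0.107), C1s2 (0.171) and Mest (0.210). C1s1 and C1s2 are those of the protease that cuts C4. They are close copies, and whether their probes read each other was not tested. A second probe of C1s2 was further from C4b, with differences of 2.50, -3.08 and -0.58 beside 3.29, -4.61 and -1.32 for C4b. For Serping1, with a range of 2.72, they were Oasl1 (0.0424), Col6a3 (0.0557) and Pf4 (0.0768).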

How the data were processed

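RNA of 3 states was hybridised to 1-colour Agilent mouse arrays, 1 array each, on the same slide and scan. The authors deposited scanner output of Agilent Feature Extraction 10.10.1.1 as spot intensity (background-subtracted processed signal) and a matrix of intensity values, which equalled the processed signal times 1 constant per array (1.52, 1.52 and 1.62). From the deposited intensity, log2 values were computed and scaled by the 75th percentile of the non-control spots (651, 697 and 541 units in adherent, non-adherent and re-adherent cells). Flagged spots were left out (154, 180 and 175), and no spot was saturated. Spots of a probe were averaged. Transcript names were turned into symbols through RefSeq (GRCm38.p6; 27235 of 55681 probes). A gene took its probe with the highest mean among those well above background on at least 1 array. Dim probes have a bound, from the lowest signal well above background on that array or their own. The number of arrays limits the precision, so folds are given with no test.

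All members were named. Other named genes were taken from complement genes over 2-fold in any pair, listed markers and factors over 4-fold, defining markers and the 3 genes most like a member, not all of which are named; the text marks names outside this rule. Members and lists were chosen with earlier results of these data known. The alternatives were the authors' values, 4 other scalings, normexp background correction (limma 3.58.1 in R 4.3.3, offset 50, on median spot signals because mean signals were not in the files used here), a floor, other filters, other probes and a 4-fold threshold. One listed gene enters the counts but is not reported here. The computation was tested on simulated data.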

Additional observations from a re-analysis of the deposited data

How the results depend on the processing

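No paired analysis was possible because each state has 1 array, and for the same reason no replicate could be left out. Of 72 recomputed counts of members, 70 stayed within 1.5 times the value given. These 70 include the counts that were 0, which stayed 0 under every setting. They also include the members over 2-fold higher in suspension, 6, which became 4 at a 4-fold threshold. The number of members over 2-fold lower in re-adherent than in adherent cells, 3, was 5 with spike-in scaling and 1 at a 4-fold threshold. Of 243 recomputed member differences, 187 stayed within their error, 55 moved by more and 1 turned its sign. Part of the 187 could not move. The floor, the other filters and the mean of a gene's probes leave a member with 1 probe, well above background on every array, as it was. The sign that turned was that of Cd55 in suspension, -0.17 with spike-in scaling. With that scaling (7 probes) the median of all genes was -0.32, -0.13 and -0.40 (non-adherent minus adherent, re-adherent minus non-adherent, re-adherent minus adherent). Before it, this median was -0.07, 0.08 and 0.06, and member values were lowered by the change in the median. Without scaling this median was -0.28 and -0.20 in the last 2 pairs, and with no filter 0.27 and 0.16. Over all settings C3 in suspension ran from 3.55 to 4.16 and C4b from 3.03 to 3.39.

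Medians of lists near 0 also turned. The other complement genes between re-adherent and adherent cells (-0.09) gave 0.059 with normexp, 0.14 with a floor and 0.14 with no filter. Fibroblast markers after re-attachment (0.12) gave -0.15 with the authors' values, -0.24 with no scaling, -0.23 with quantile normalization and -0.085 with spike-in scaling. Granulocyte markers gave 0.20 in suspension with quantile normalization (-0.20 before) and 0.40 after re-attachment with no filter (-0.11 before). Cardiomyocyte markers between the attached states (0.02) gave -0.16 with the authors' values, -0.25 with no scaling, -0.053 with median centring, -0.44 with spike-in scaling and -0.17 with no filter. The cause was not tested. Signal over background limits Cfb in re-adherent cells, where only a bound is known.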
